A study of Homo sapiens with 7 samples.

Results

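The 10 genes described here encode secreted factors that cells make under mitochondrial or endoplasmic reticulum stress. They are the hormones GDF15 and FGF21, the vascular growth factors VEGFA and VEGFB, the adrenomedullins ADM and ADM2, the stanniocalcins STC1 and STC2, the activin subunit INHBE and the lipase inhibitor ANGPTL4. All 10 were found by symbol among the 60591 rows of a count table, of which 18311 were expressed highly enough to be tested. The table covers the human cell line TE11, labelled as esophageal squamous cell carcinoma cells. The cells were given 200 µM diclofenac (n = 4 libraries) or 0.07% DMSO, the solvent and vehicle (n = 3 libraries), and both groups were harvested after 48 h. Diclofenac, used against pain and inflammation, blocks the cyclooxygenase enzymes. The set was chosen by the measured counts of GDF15, FGF21 and VEGFA, which were higher under diclofenac in these same libraries. All values of the 10 in this comparison are therefore a description, and no p is given for them.

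Cells that meet unfolded proteins, failing mitochondria or lack of amino acids slow down general translation and raise the transcription factor ATF4, a program called the integrated stress response. Among its output are hormones that act on other organs: GDF15 acts on the hindbrain and FGF21 on fat, liver and brain, and INHBE is known mainly from the liver. VEGFA, ADM and ANGPTL4 also answer to low oxygen through the HIF factors, and ANGPTL4 to the fatty acid sensors of the PPAR family. None of these routes is particular to the esophagus.

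Total counts ran from 19878696 to 24985098 in the diclofenac libraries and from 22364064 to 26490829 in the vehicle libraries. Levels are given as normalized CPM, counts divided by a library size that was adjusted with the TMM method, on which 1 count was worth 0.0385 to 0.0486. Several genes that define squamous epithelium were near 0 in both groups: KRT5 had 1 count in all diclofenac and 0 in all vehicle libraries, KRT14 had 2 and 3, and KRT6A had none. Of 11 squamous and epithelial markers, 4 stood at 1 normalized CPM or more in every library (CDH1, EPCAM, KRT8 and KRT18), and the summed level of the list was 78.5 to 89.7 under diclofenac and 77.5 to 85.0 under vehicle. Most of it came from KRT8, which was called higher at 20.4 ± 2.43 under diclofenac and 9.91 ± 0.980 under vehicle, and KRT18, which was called lower at 56.9 ± 2.14 under diclofenac and 67.7 ± 4.23 under vehicle. The summed levels of 6 endothelial markers were 0.842 to 1.31 under diclofenac and 0.580 to 0.729 under vehicle, with EMCN at 0, CDH5 at 4 counts in all diclofenac and 0 in all vehicle libraries, and PECAM1 at 21 and 2. Those of 7 leukocyte markers were 5.60 to 6.45 under diclofenac and 4.33 to 4.82 under vehicle. Of these, PTPRC had 6 counts in all diclofenac and 2 in all vehicle libraries, CSF1R 53 and 4 and CD14 99 and 32. The summed levels of 8 fibroblast markers were 14.7 to 16.0 under diclofenac and 17.6 to 20.5 under vehicle, with COL1A1 alone at 1 normalized CPM or more in every library. The part of such cells in the values below was not tested.

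Of the 10 secreted factors, 7 were higher under diclofenac in every library than in any vehicle library, VEGFB was lower in every library, and STC1 and ANGPTL4 overlapped between the groups. Such a gap is common here: it was seen for 58.5% of all tested genes. The filter on low counts passed 7 of the 10 (GDF15, FGF21, VEGFA, VEGFB, ADM, STC2 and INHBE), and edgeR's fit called 6 of them higher and 1 lower. Over all tested genes 59.7% were called, 30.2% higher and 29.5% lower. Because the choice of genes used this contrast, nothing is read from that count. In bulk RNA, more cells that make a transcript and more transcript per cell cannot be told apart.

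**Figure D1:**
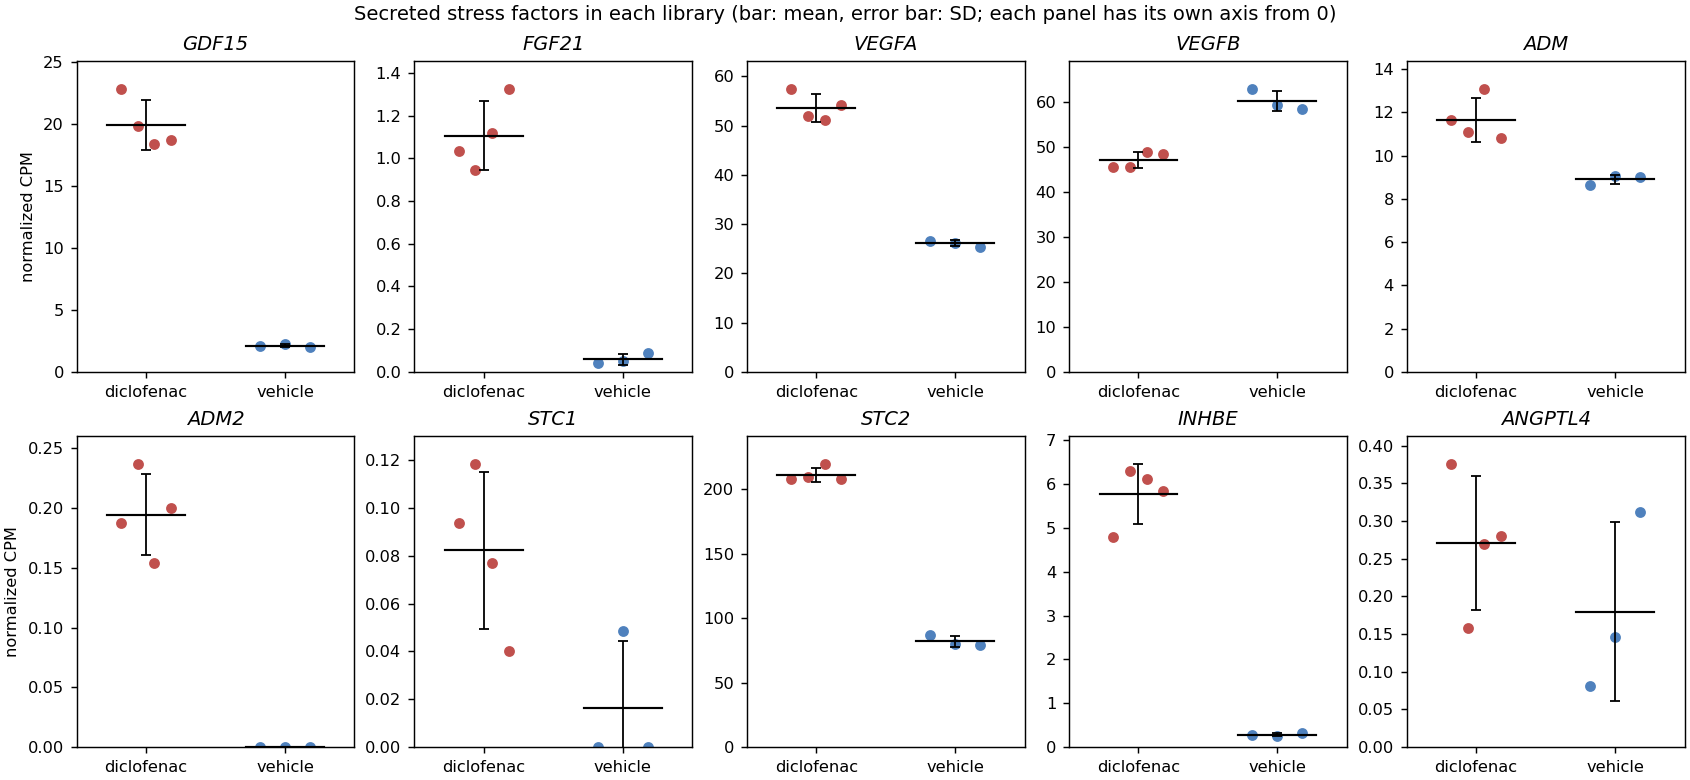
Normalized CPM of each of the 10 secreted factors (vertical axes, each from 0) in the 4 diclofenac libraries (red) and the 3 vehicle libraries (blue), with the mean (bar) and SD (error bar). In 7 panels all diclofenac points lie above all vehicle points, VEGFB is the reverse, and the points of STC1 and ANGPTL4 overlap.

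GDF15, a distant member of the TGF-beta family that signals through GFRAL, was higher about 9-fold. Its normalized CPM were 22.8, 19.8, 18.4 and 18.7 in diclofenac replicates 1 to 4, and 2.11, 2.24 and 2.01 in vehicle replicates 1 to 3. The lowest diclofenac library was thus far above the highest vehicle library, and the vehicle libraries lay close together. The means were 19.9 ± 2.00 under diclofenac and 2.12 ± 0.114 under vehicle (SD, n = 4 and 3), a fold of 9.38 (log2 fold change 3.23, SE 0.114). These values rest on 1933 counts in all diclofenac and 143 in all vehicle libraries. In the list of tested genes ordered by log2 fold change GDF15 stood at place 34.

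FGF21, an endocrine fibroblast growth factor that needs the co-receptor KLB, was close to absent under vehicle. It had 22, 24, 29 and 33 counts in diclofenac replicates 1 to 4, and 1, 1 and 2 counts in vehicle replicates 1 to 3. Every diclofenac library held more than 10 times the counts of any vehicle library, but the vehicle level itself rests on 4 counts. The ratio of count rates was 18.7 (95% exact interval 7.10 to 69.9, counting error only). The fitted log2 fold change was 4.11 (SE 0.411), and the mean level was 1.10 ± 0.161 normalized CPM under diclofenac and 0.0595 ± 0.0261 under vehicle. The 2591 tested genes whose mean lay under 0 log2 CPM, FGF21 among them, had a median log2 fold change of 0.40, against 0.02 over all tested genes. Of these 2591, 640 were called higher by at least 2-fold. Genes this weak could pass the filter on low counts through the diclofenac group alone, as FGF21 did. The median of this class is therefore not free of the filter.

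INHBE, the beta subunit of activin E, had the largest fitted fold of the 10. It stood at 4.78, 6.31, 6.13 and 5.85 normalized CPM in diclofenac replicates 1 to 4, and at 0.284, 0.243 and 0.312 in vehicle replicates 1 to 3. The diclofenac libraries spread more in absolute terms, replicate 1 being the lowest, yet none came near the vehicle level. The log2 fold change was 4.34 (SE 0.213), on 567 counts in all diclofenac and 19 in all vehicle libraries, and the ratio of count rates was 20.7 (95% exact interval 13.1 to 34.6, counting error only). It stood at place 10 among all tested genes ordered by log2 fold change, just above FGF21 at place 13. Like FGF21, INHBE passed the filter on low counts through the diclofenac group only, so neither place is free of the filter. The intervals of INHBE and FGF21 overlap, so the order of their folds is not resolved.

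**Figure D2:**
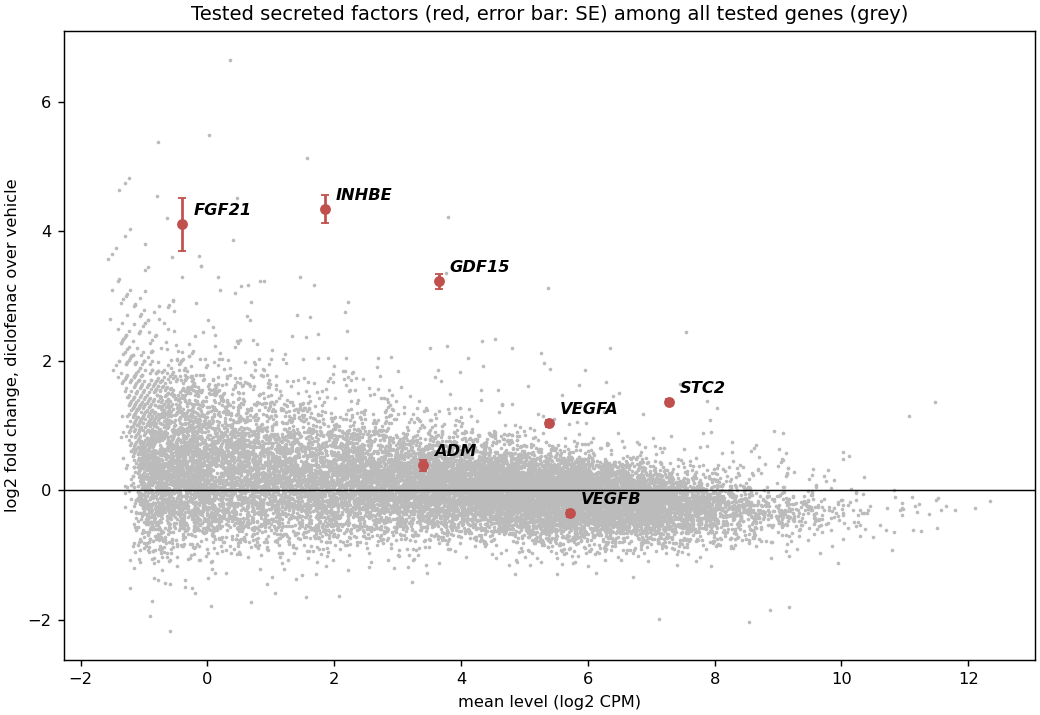
Log2 fold change of diclofenac over vehicle (vertical axis) against mean level in log2 CPM (horizontal axis) for the 18311 tested genes (grey) and the 7 tested secreted factors (red, error bar SE). GDF15, INHBE and FGF21 lie between 3.23 and 4.34, STC2 and VEGFA between 1.04 and 1.37, and ADM (0.39) and VEGFB (-0.35) lie within the grey cloud.

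The stretches of DNA upstream of FGF21, GDF15, ADM2 and VEGFB are shown because they set the factor with the lowest vehicle counts among those tested beside others that were higher and the 1 that was lower. They are RefSeq sequences of build GRCh38.p14, all on the plus strand, running from 250 bases before the annotated start up to it, or up to 51 bases before it for VEGFB: chr19:48755274-48755523 for FGF21, chr19:18385908-18386157 for GDF15, chr22:50481293-50481542 for ADM2 and chr11:64234334-64234533 for VEGFB. Capitals mark a match to TTGCATCA or TGATGNAAN on either strand, 2 spellings of the composite element to which ATF4 binds together with C/EBP proteins, which overlap each other.
FGF21: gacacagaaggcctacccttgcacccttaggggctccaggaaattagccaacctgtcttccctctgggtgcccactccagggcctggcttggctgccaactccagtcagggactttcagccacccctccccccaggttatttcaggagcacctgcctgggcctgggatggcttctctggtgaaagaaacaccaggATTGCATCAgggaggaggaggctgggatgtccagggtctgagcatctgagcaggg
GDF15: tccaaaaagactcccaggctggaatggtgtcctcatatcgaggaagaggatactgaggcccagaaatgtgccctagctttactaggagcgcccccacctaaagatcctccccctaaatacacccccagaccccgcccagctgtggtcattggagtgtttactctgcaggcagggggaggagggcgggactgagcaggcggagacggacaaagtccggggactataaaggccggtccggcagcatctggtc
ADM2: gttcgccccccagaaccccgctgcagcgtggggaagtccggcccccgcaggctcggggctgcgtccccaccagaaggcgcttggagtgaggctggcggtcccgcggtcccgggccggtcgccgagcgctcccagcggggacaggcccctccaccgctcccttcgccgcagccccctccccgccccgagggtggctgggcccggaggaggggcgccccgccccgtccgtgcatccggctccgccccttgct
VEGFB: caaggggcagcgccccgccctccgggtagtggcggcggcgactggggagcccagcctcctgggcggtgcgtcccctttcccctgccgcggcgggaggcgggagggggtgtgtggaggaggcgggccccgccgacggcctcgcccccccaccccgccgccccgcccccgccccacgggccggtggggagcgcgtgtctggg

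Windows of 300 bases, from 250 before to 50 after the start, were found for 7 of the 10 genes (GDF15, FGF21, VEGFB, ADM, ADM2, STC2 and ANGPTL4). TTGCATCA was found in the window of FGF21 only, 54 to 47 bases before its start, and in 0.866% of 35116 promoter windows. The looser TGATGNAAN was likewise found in FGF21 only among the 7, on the other strand over the same bases, and in 3.61% of all windows. Of the short core letters to which HIF factors bind, ACGTG was found in ANGPTL4 only, and in 21.4% of all windows. GCGTG was found in ADM, ADM2, STC2 and VEGFB, the last of which was lower under diclofenac, and in 36.5% of all windows. The endoplasmic reticulum stress element, CCAAT and CCACG with 9 bases of any kind between them, was in none of the 7, and in 0.0769% of all windows. All were searched on both strands. A match is a description of letters, and a window without one says nothing of the factor.

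VEGFA and VEGFB are close relatives that differed between the groups in opposite directions. VEGFA, the main growth factor of blood vessels, stood at 57.3, 51.9, 51.1 and 54.2 normalized CPM in diclofenac replicates 1 to 4, and at 26.7, 26.2 and 25.4 in vehicle replicates 1 to 3. All diclofenac libraries were thus at about the same level, close to 2-fold above the vehicle libraries (log2 fold change 1.04, SE 0.0549). VEGFB, which shares the receptor FLT1 with VEGFA and has been linked to heart and fat tissue, stood at 45.5, 45.6, 48.9 and 48.4 normalized CPM in diclofenac replicates 1 to 4, and at 62.8, 59.3 and 58.4 in vehicle replicates 1 to 3. Here every diclofenac library was below every vehicle library (log2 fold change -0.35, SE 0.0486). When libraries were scaled by total counts alone, the median over all tested genes was 0.20 instead of 0.02, and the value for VEGFB was -0.17.

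The ratio of 2 genes within a library is free of the scaling. Counts of VEGFA over those of VEGFB came to 1.26, 1.14, 1.04 and 1.12 in diclofenac replicates 1 to 4, and to 0.424, 0.442 and 0.435 in vehicle replicates 1 to 3. VEGFA was therefore the gene with more counts in every diclofenac library and VEGFB the one with more in every vehicle library. The ratio of GDF15 to VEGFA was 0.371 ± 0.0232 under diclofenac and 0.0811 ± 0.00350 under vehicle (SD, n = 4 and 3). That of INHBE to GDF15 was 0.293 ± 0.0564 under diclofenac and 0.133 ± 0.0235 under vehicle, with diclofenac replicate 1 at 0.210 and the other 3 at 0.313 to 0.333. GDF15 and INHBE thus did not keep a fixed proportion among the diclofenac libraries: replicate 1 had the most GDF15 and the least INHBE.

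**Figure D3:**
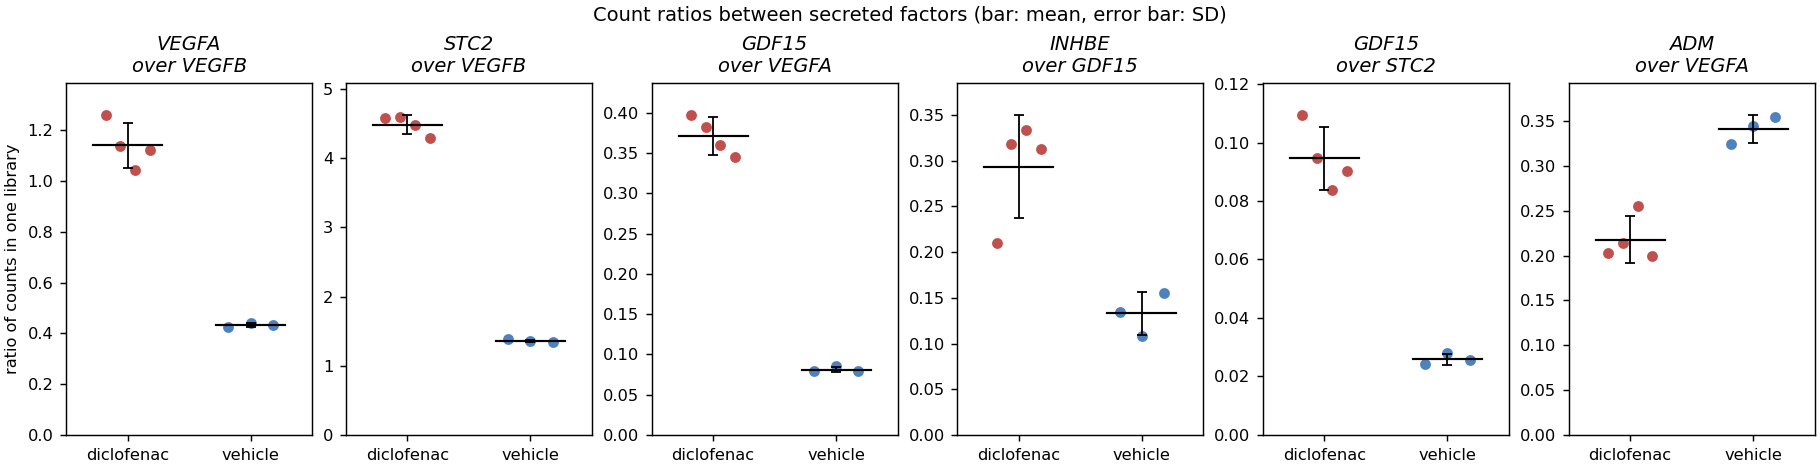
Ratios of the raw counts of 2 secreted factors within each library (vertical axes, each from 0), for 4 diclofenac libraries (red) and 3 vehicle libraries (blue), with mean (bar) and SD (error bar). VEGFA over VEGFB averages 1.14 under diclofenac and 0.434 under vehicle, and ADM over VEGFA is the only ratio drawn that is lower under diclofenac.

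STC2, a glycoprotein that binds and blocks the protease PAPPA, had the most counts of the 10 genes in every library. It stood at 208, 209, 219 and 208 normalized CPM in diclofenac replicates 1 to 4, and at 86.7, 80.2 and 78.8 in vehicle replicates 1 to 3. Diclofenac replicate 3 was somewhat above the other 3, which agreed closely, and the gap to the vehicle libraries was many times either spread. The log2 fold change was 1.37 (SE 0.0476), a fold of 2.58. Calls of at least 2-fold higher were made for 45 of the 8539 tested genes with mean levels between 4 and 8 log2 CPM. STC2 and VEGFA are among them, but the choice of the set used this contrast, so nothing is read from that. Its paralog STC1 was barely detected, with 2, 3, 2 and 1 counts in diclofenac replicates 1 to 4, and 0, 1 and 0 counts in vehicle replicates 1 to 3. The ratio of its count rates was 5.54, with a 95% exact interval from 0.743 to 246 (counting error only), so no difference was detectable at this depth.

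ADM, a vasodilator peptide, was moderately expressed and differed little between the groups. It stood at 11.6, 11.1, 13.1 and 10.8 normalized CPM in diclofenac replicates 1 to 4, and at 8.64, 9.04 and 9.02 in vehicle replicates 1 to 3. The groups did not overlap, at a log2 fold change of 0.39 (SE 0.0857). This was less than for VEGFA, with which ADM shares regulation by low oxygen: ADM over VEGFA was 0.218 ± 0.0260 under diclofenac and 0.341 ± 0.0157 under vehicle (SD, n = 4 and 3). ADM2, also named intermedin, had 4, 6, 4 and 5 counts in diclofenac replicates 1 to 4, and no count in any vehicle library. Set against a floor of 3 counts over the 3 vehicle libraries together, its rate under diclofenac was 4.39-fold higher, which is not a lower bound. The lower end of the 95% exact interval, which covers counting error only, was 3.23.

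ANGPTL4, which inhibits lipoprotein lipase in blood vessels, had 8, 4, 7 and 7 counts in diclofenac replicates 1 to 4, and 2, 3 and 7 counts in vehicle replicates 1 to 3. The libraries of the groups overlapped, and the ratio of count rates was 1.50 with a 95% exact interval from 0.731 to 3.27 (counting error only). The antisense gene RAB11B-AS1 overlaps ANGPTL4 and held 237 counts in all diclofenac and 308 in all vehicle libraries. Nothing says whether the counting used strand, so reads of the 2 genes cannot be told apart with certainty. GDF15 holds the microRNA gene MIR3189, whose row had 2 counts in all diclofenac and 0 in all vehicle libraries. The antisense gene AL136131.3, which overlaps VEGFA, had 0 counts in every library.

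Per length, the order of the 10 differed between the groups. Levels are given here as TPM, counts per kilobase of the longest transcript in the consensus coding set of GENCODE 29, scaled to the same total in each library over the 91.1% of rows that matched. Under diclofenac STC2 stood at 82.7 ± 2.29 TPM, VEGFB at 71.5 ± 0.582, GDF15 at 34.9 ± 4.68, VEGFA at 31.8 ± 2.53, ADM at 12.9 ± 0.995, INHBE at 4.97 ± 0.526 and FGF21 at 1.76 ± 0.218 (SD, n = 4). Under vehicle VEGFB led at 78.5 ± 3.51 TPM, followed by STC2 at 27.5 ± 1.57, VEGFA at 13.3 ± 0.318, ADM at 8.48 ± 0.293, GDF15 at 3.17 ± 0.0834, INHBE at 0.208 ± 0.0314 and ANGPTL4 at 0.173 ± 0.119 (SD, n = 3). The spreads of GDF15 and VEGFA overlapped under diclofenac, but GDF15 was the higher within every library, by little in replicate 4 (31.9 and 31.4 TPM). Under vehicle ANGPTL4 was above FGF21 in every library, on only 12 and 4 counts in all. INHBE and ANGPTL4 changed order between the vehicle libraries. Under diclofenac the last places went to ANGPTL4 (0.303 ± 0.104), ADM2 (0.0957 ± 0.0185) and STC1 (0.0448 ± 0.0188 TPM), and under vehicle to FGF21 (0.0820 ± 0.0380), STC1 (0.00729 ± 0.0126) and ADM2, which had no count. These places rest on the transcript chosen, since the consensus coding transcripts of VEGFA run from 414 to 3535 bases and those of ADM2 from 535 to 4276. With the shortest one of each gene, an alternative chosen after seeing the data, VEGFA led both groups, at 272 ± 21.6 TPM under diclofenac and 113 ± 2.71 under vehicle, and ADM2 stood at 0.765 ± 0.148 TPM under diclofenac, above ANGPTL4 at 0.333 ± 0.115.

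Summed over the 10 genes at their longest transcripts, the level was 241 ± 8.67 TPM under diclofenac and 131 ± 5.23 TPM under vehicle. VEGFB made up 29.7 ± 1.07% of that sum under diclofenac and 59.7 ± 0.302% under vehicle. The share of STC2 was 34.3 ± 0.735% under diclofenac and 20.9 ± 0.383% under vehicle, and that of GDF15 was 14.4 ± 1.41% and 2.42 ± 0.139%. FGF21, in spite of its large fold, made up 0.732 ± 0.107% under diclofenac and 0.0626 ± 0.0292% under vehicle. With these lengths STC2 and VEGFB had the largest shares in both groups, in opposite order. With the shortest transcripts VEGFA had the largest share, 51.5 ± 1.55% under diclofenac and 41.4 ± 0.373% under vehicle, close to VEGFB under vehicle at 40.4 ± 0.487%.

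Genes with the pattern most like that of a secreted factor were sought by the root mean square difference of log2(normalized CPM + 0.5) over the 7 libraries, after the vehicle mean was taken off. Nearest to GDF15 among 11556 genes were the arrestin-domain gene ARRDC3 (difference 0.117) and the neurotrophin receptor NGFR (0.118), with the nuclear RNA MALAT1 next at a much larger distance (0.451). NGFR averaged 21.6 ± 1.03 normalized CPM under diclofenac and 2.11 ± 0.169 under vehicle, almost the same levels as GDF15. Nearest to VEGFA among 8359 genes were the heme oxygenase HMOX1 (0.0647), NHSL1 (0.0759) and LRIF1 (0.0821). HMOX1, which breaks down heme under oxidative stress, averaged 66.0 ± 1.29 normalized CPM under diclofenac and 32.4 ± 0.747 under vehicle. For FGF21 the added 0.5 is larger than its vehicle level, and the nearest genes, LAMB3 (0.0827), KCTD19 (0.0900) and C19orf38 (0.0942), had log2 fold changes of only 1.85, 1.69 and 1.72.

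Among 16 transcription factors that act upstream of these hormones, 10 rose and 2 fell, with a median log2 fold change of 0.38. Over all tested genes the median was 0.02 and 59.7% were called. The list was chosen with earlier results of these data known, so its calls and p-values are no independent evidence. DDIT3, the stress factor CHOP that ATF4 induces, rose to 41.5 ± 2.36 normalized CPM under diclofenac, against 9.04 ± 1.11 under vehicle (log2 fold change 2.20, SE 0.0774, edgeR adjusted p = 3.60e-13). EGR1, an early response factor, rose by 1.84 (SE 0.133), ATF3, a partner of the stress response, by 1.68 (SE 0.0499) and CEBPB, which pairs with ATF4, by 1.48 (SE 0.0566) on the log2 scale. For each of these 4, every diclofenac library was above every vehicle library. The groups did not overlap, in either direction, for 13 of the 16 factors and for 58.5% of all tested genes. ATF4 itself, which is controlled largely at translation, rose by 0.48 (SE 0.0558), at 1191 ± 83.1 normalized CPM under diclofenac and 854 ± 31.5 under vehicle. XBP1 and ATF6, factors of the endoplasmic reticulum stress response, rose by 0.91 (SE 0.0495) and 0.36 (SE 0.0471), and CEBPG, another partner of ATF4, by 0.69 (SE 0.0441).

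The factors of low oxygen and fatty acid sensing were mixed. HIF1A stood at 84.3 ± 1.80 normalized CPM under diclofenac and 85.6 ± 6.73 under vehicle and did not pass the test (log2 fold change -0.02, SE 0.0509), while with total counts alone it was called higher at 0.16 (edgeR adjusted p = 0.0177). EPAS1, which encodes HIF-2 alpha, fell by 0.39 (SE 0.0586), and ARNT, the partner of both, rose by 0.20 (SE 0.0577). PPARG rose by 0.41 (SE 0.0717). PPARD was called lower at -0.16 (SE 0.0639), a call that was lost with upper-quartile factors, with the DESeq2 Wald test, with the stricter filter and without diclofenac replicate 2, diclofenac replicate 3 or any 1 of the vehicle libraries, and its value was 0.02 by total counts alone. PPARA (0.05), TFEB (0.13) and ATF5 (-0.15) did not pass, but with total counts alone PPARA (0.23) and TFEB (0.31) were called higher and ATF5 stood at 0.03 without passing. HIF1A protein is set mainly by its breakdown, so transcript levels speak only for transcripts.

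**Figure D4:**
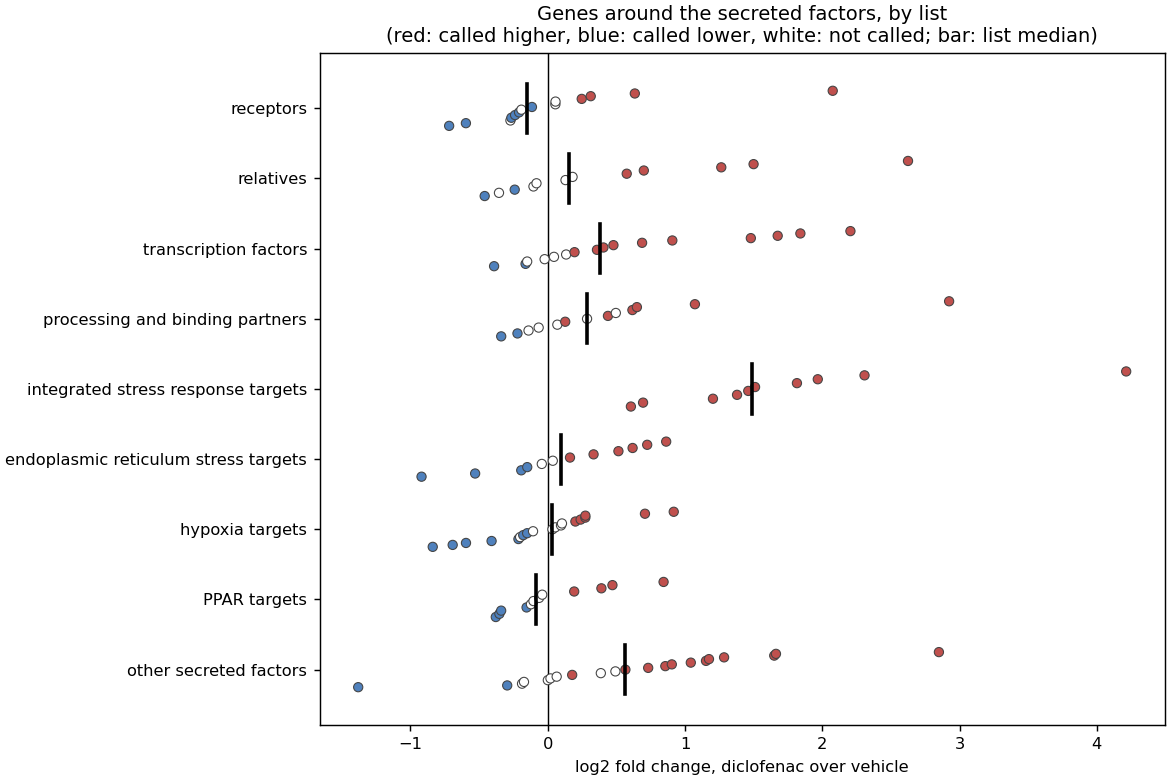
Log2 fold change of diclofenac over vehicle (horizontal axis) for the tested genes of 9 lists around the secreted factors (rows), coloured by the edgeR call, with the list median as a bar. All 10 integrated stress response targets lie to the right of 0 with a median of 1.49, while hypoxia targets (median 0.03) and PPAR targets (median -0.08) lie on both sides.

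Other genes of the same stress routes were set beside the hormones, and their counts stand against the 59.7% of all tested genes that were called, 30.2% higher and 29.5% lower. All 10 of 10 integrated stress response targets rose, with a median fold of 2.80, led by NUPR1 (log2 fold change 4.21, SE 0.129), CHAC1 of glutathione breakdown (2.31, SE 0.0765) and the cystine transporter SLC7A11 (1.97, SE 0.0639). Earlier results of these data had already shown that this group was higher, so it is no independent evidence. Of 12 endoplasmic reticulum stress targets, 6 rose and 4 fell, against 8 and 2 by total counts alone. The co-chaperone DNAJB9 rose by 0.86 (SE 0.0681) and HERPUD1, of protein disposal, by 0.72 (SE 0.0470), while SDF2L1 fell by 0.92 (SE 0.0709). Of 19 tested hypoxia targets, 6 rose and 7 fell (10 and 3 under total-count scaling), and the median log2 fold change was 0.03. Among them the glucose transporter SLC2A1 fell by 0.84 (SE 0.0462), while SLC2A3, another glucose transporter, rose by 0.92 (SE 0.117) and BHLHE40, a repressor tied to the circadian clock, by 0.71 (SE 0.0708). Of 12 tested PPAR targets 4 rose and 4 fell. PDK4, a brake on pyruvate use, was higher by 0.84 (SE 0.117), ACADVL, of fatty acid oxidation, by 0.47 (SE 0.0452) and the lipid droplet protein PLIN2 by 0.39 (SE 0.0810). CPT1A rose by 0.19 (SE 0.0483). The 4 that fell were HADHA (-0.38, SE 0.0439), CPT2 (-0.35, SE 0.0502), CAT (-0.34, SE 0.0550) and ETFDH (-0.15, SE 0.0517).

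The receptors of the secreted factors were in part absent. GFRAL, through which GDF15 acts, had 1 count in all diclofenac and 0 in all vehicle libraries, and its partner RET stood at 4.17 ± 0.406 normalized CPM under diclofenac and 4.74 ± 0.331 under vehicle without passing the test. KLB, the co-receptor of FGF21, had 44 counts in all diclofenac and 24 in all vehicle libraries, too few to be tested. KDR, the main VEGFA receptor of blood vessels, had 29 and 10. Of 19 receptor genes 14 were tested, 4 rose and 6 fell, against 6 and 2 by total counts alone. Over all tested genes 59.7% were called. Among those that fell were FGFR1, FGFR2, FGFR3 and FGFR4 (log2 fold changes -0.26, -0.11, -0.60 and -0.24). They averaged 76.8, 78.0, 33.8 and 34.5 normalized CPM under diclofenac. FLT1, the receptor shared by VEGFA and VEGFB, rose by 0.31 (SE 0.0999). CALCRL, the receptor of both adrenomedullins, rose to 1.08 ± 0.194 normalized CPM under diclofenac, against 0.249 ± 0.0731 under vehicle (log2 fold change 2.08, SE 0.314). Every diclofenac library was above every vehicle library. CALCRL passed the filter on low counts through the diclofenac group only, so no p is given for it. Its partner RAMP1 fell by 0.72 (SE 0.0746), at 14.7 ± 1.47 under diclofenac and 24.2 ± 1.24 under vehicle. RAMP2, a partner with which CALCRL binds adrenomedullin, was called higher at 0.63 (SE 0.210), a call lost with the DESeq2 Wald test and without vehicle replicate 3 (log2 fold change 0.46), and RAMP3 had no count in any library.

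Of 22 relatives of the secreted factors, 12 were tested, 5 rose and 2 fell, against 7 and 1 by total counts alone. This is near the 59.7% called over all tested genes. Among those that rose were INHBA, INHBC and INHA, other subunits of activins and inhibins. They passed the filter on low counts through the diclofenac group only. Their calls, and the 5 that rose, are thus not free of it. With at least 1 CPM required in every library of a group, 2 relatives rose and 2 fell. INHBA rose to 2.31 ± 0.292 normalized CPM under diclofenac, against 0.372 ± 0.259 under vehicle (log2 fold change 2.62, SE 0.287), with no overlap between the libraries. It passed the filter on low counts through the diclofenac group only, so no p is given for it. Vehicle replicate 3 held 15 of the 25 vehicle counts of INHBA, and without it the log2 fold change was 3.35 (2.29 to 3.35 when each library was left out in turn). INHBC rose by 1.50 (SE 0.411) and INHA, the inhibin alpha subunit, by 1.26 (SE 0.299), each from few counts: INHBC had 50 counts in all diclofenac and 12 in all vehicle libraries, and INHA 98 and 28. INHBB stood at 4.91 ± 0.448 normalized CPM under diclofenac and 4.46 ± 0.333 under vehicle and did not pass the test. INHBA and INHBB lie among the 6525 tested genes of 0 to 4 log2 CPM, whose median log2 fold change was 0.16, and INHBC and INHA among those below 0 log2 CPM, with a median of 0.40.

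Of 20 genes that process or bind the secreted factors, 13 were tested, 6 rose and 2 fell, against 8 and 1 by total counts alone, which is near the 59.7% called over all tested genes. PAPPA2, a relative of the protease that stanniocalcins block, rose to 0.926 ± 0.223 normalized CPM under diclofenac, against 0.114 ± 0.0987 under vehicle (log2 fold change 2.92, SE 0.450). It had 91 counts in all diclofenac and 8 in all vehicle libraries. It passed the filter on low counts through the diclofenac group only, so no p is given for it. The matrix proteases MMP2 and MMP14 rose by 1.07 (SE 0.144) and 0.65 (SE 0.163). Of 29 other secreted factors, chosen as growth factors and cytokines at large, 21 were tested, 12 rose and 2 fell, with a median log2 fold change of 0.57, where over all tested genes 30.2% were called higher and 29.5% lower. The chemokine CXCL8 rose by 2.85 (SE 0.458) on 76 counts in all diclofenac and 7 in all vehicle libraries. CXCL8 too passed the filter on low counts through the diclofenac group only. MDK, the heparin-binding growth factor midkine, rose to 246 ± 24.4 normalized CPM under diclofenac, against 78.4 ± 4.42 under vehicle, a level like that of STC2. Its log2 fold change was 1.65 (SE 0.0679, edgeR adjusted p = 3.49e-12). This list too was chosen with earlier results of these data known, so the p is no independent evidence.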

How the data were processed

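RNA sequencing of 7 TE11 libraries was used. Per the labels' protocols, column-purified total RNA was made into libraries with a directional kit. The deposited values are raw counts per gene, with no normalization by the authors. The submitters' processing notes name DESeq and the mouse build GRCm38, yet the rows carry human symbols. Aligner, counter and annotation are not given in the sources used here, so no coordinates are given for the counts. Genes were filtered with filterByExpr (minimum count 10, minimum total 15), which kept 99.86% of all counts, scaled by TMM and tested with the quasi-likelihood test of edgeR 4.0.16 (R 4.3.3), with Benjamini-Hochberg adjustment over 18311 genes. Calls were made where the adjusted p was under 0.05. The filter asks for about its minimum count in as many libraries as the smaller group has. A gene can thus pass through the diclofenac group alone. FGF21, INHBE, CALCRL, INHBA, INHBC, INHA, PAPPA2 and CXCL8 passed in this way, and their calls are not free of it. SE were derived from the F statistic. Exact intervals (95%) are conditional binomial on summed counts and scaled library sizes, and cover counting error only. The labels do not say whether each library had its own culture. The p-values thus speak only for the spread among these libraries, which may be technical. Same-group pairs differed beyond sampling noise (chi-square per degree of freedom 2.17 to 7.40), so none was merged.

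The 10 genes and the 9 supporting lists (163 genes) were chosen with earlier results of these data known. Named were all 10 genes, every listed transcription factor, the 3 called genes with the largest change in each list and the 3 nearest genes in pattern. Some results under this rule are not reported here. Other receptors, relatives, PPAR targets and markers named in the text were chosen after their values were seen. Nearest genes were sought among those no more than 1 log2 CPM below the hormone in mean level. Alternatives were DESeq2 1.42.0 size factors and Wald test, upper-quartile factors, total counts alone, other filters, a block for replicate numbers, fits without each library in turn and, for levels per length, the shortest transcript (added after seeing the data).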

Additional observations from a re-analysis of the deposited data

Results flagged for a closer look

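In 2 of 59 genes examined, 1 of the 4 diclofenac libraries stood far from the other 3 by Dixon's criterion, which flags about 1 in 20 groups by chance. STC2 was at 219 normalized CPM in diclofenac replicate 3, against 208 to 209 in the other diclofenac libraries. HIF1A was at 81.6 normalized CPM in the same replicate, against 84.9 to 85.6 in the other diclofenac libraries. Both gaps are small beside the level itself.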

How the results depend on the processing

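For the 7 tested secreted factors, direction and call were the same in all 14 alternatives, with log2 fold changes of 3.17 to 3.41 for GDF15, 3.88 to 4.48 for FGF21, 4.25 to 4.52 for INHBE, 1.01 to 1.22 for VEGFA, 1.33 to 1.55 for STC2, 0.33 to 0.57 for ADM and -0.38 to -0.17 for VEGFB. Over all genes, 5535 were higher and 5402 lower by TMM, 8615 and 3039 by total counts alone and 6994 and 4171 with upper-quartile factors, and leaving out 1 library gave 9908 to 10710 calls. With at least 1 CPM required in every library of a group, fewer genes were tested, and 4 relatives and 9 other secreted factors were called, against 7 and 14. The log2 fold change was reversed for ATF5 (0.0294) and PPARD (0.0190) by total counts alone, and for HIF1A at 0.0655 with upper-quartile factors, 0.158 by total counts alone and 0.00379 with the stricter filter. Leaving out 1 library put HIF1A between -0.0647 and 0.0369, the high end without vehicle replicate 3, and the cause was not tested. The numbers of the replicates showed no sign of pairing the libraries, which does not exclude a pairing. Correlations of deviations were 0.0218, 0.0180 and -0.0779 for numbers 1 to 3, and -0.0881 to 0.0946 for unlike numbers. The replicate block gave 9918 calls against 10937. FGF21, ADM2, STC1 and ANGPTL4 are limited by depth.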
